A study of Mus musculus with 6 samples.

Results

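Motile cilium genes of the nasal mucosa were described in olfactory epithelium of Harlequin and control mice. The list held 36 genes that build the beating cilium or set the fate of the multiciliated cell. Probe sets were taken by gene symbol from the array's platform annotation, which gave 32 genes under the listed symbol and 2, Dnai1 and Dnai2, under their older symbols Dnaic1 and Dnaic2. These 34 genes, of 18193 named on the array, had 54 probe sets. Signals of Cfap44 and Sntn were not analysed here, and only their promoter windows are counted. Each gene was represented by its probe set with the highest mean, and 32 of the 34 passed a minimum mean signal of 61.1. Spag6 and Spag17 lay below it.

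The samples were 6 male mice, all 6 months old. In the 3 Harlequin mice (Hq/Y) the gene Aifm1, which encodes apoptosis-inducing factor and lies on the X chromosome, is mutated. The labels give their strain as B6CBACAw-J/A-Pdcd8-Hq/J, after an older symbol of that gene. The 3 controls (+/Y) are called littermates, with strain B6CBACa, so genotype and any difference in strain background cannot be told apart. The mice had been bought at 13 weeks of age, and the arrays of a genotype are labelled biological replicates. RNA of the microdissected epithelium of each mouse was hybridised to 1 Affymetrix array, and the stated question was which gene expression changes accompany the neurodegeneration under oxidative stress in this mutant.

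Motile cilia stand in tufts on the multiciliated cells of the respiratory epithelium, which borders the olfactory epithelium in the nasal cavity, and their beat moves mucus. Each is built on an axoneme of doublet microtubules around a central pair. Dynein arms drive the sliding of the doublets, radial spokes and the central apparatus coordinate it, and transcription factors such as Foxj1 and those of the Rfx family switch on the genes of this machine. The cilia of olfactory sensory neurons, by contrast, serve odorant detection and do not beat in mammals. A microdissected piece of olfactory epithelium can therefore hold more or less of the adjoining respiratory epithelium, and in bulk RNA fewer cells of a type and less RNA per cell cannot be told apart.

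Rfx factors bind an inverted repeat named the X-box, and its letters are shown here because they are what many members share beyond the gene list. RefSeq promoter windows (build GRCm38.p6), from 250 bases before to 50 bases after a start, were found for 31 of the 36 genes, in 37 windows. An X-box was searched on both strands, so that a match may read as the reverse complement, as GTTNCC, then 1 to 4 bases of any kind, then GNAAC. It occurred in 14 of the 37 windows, or 37.8%, belonging to 13 genes, against 611 of 32851 windows of the same length, or 1.86%. These letters were chosen after the member windows were seen, so the shares are a description and no test of enrichment. Some windows of 1 gene overlap, so the member windows are not independent. The shorter core GTTGCC alone, which overlaps the X-box, occurred in 51.4% of member windows and 12.5% of all windows, and the forkhead sequence TGTTTA in 24.3% and 13.4%. A match describes the letters in the window and does not show binding. The X-box of 8 members, with its surroundings, is given 5′ to 3′ on the gene's strand, and capitals mark the match.

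Tekt4 (chr17:25471570-25471623, plus strand): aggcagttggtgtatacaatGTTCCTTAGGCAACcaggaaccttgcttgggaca
Dnai1 (chr4:41569755-41569807, plus strand): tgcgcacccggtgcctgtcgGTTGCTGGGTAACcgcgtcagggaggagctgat
Dynlrb2 (chr8:116504944-116504996, plus strand): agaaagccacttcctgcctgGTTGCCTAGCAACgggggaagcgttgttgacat
Hydin (chr8:110266936-110266989, plus strand): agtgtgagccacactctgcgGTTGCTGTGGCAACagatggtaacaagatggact
Tekt2 (chr4:126325685-126325737, minus strand): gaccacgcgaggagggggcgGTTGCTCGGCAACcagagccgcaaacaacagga
Pifo (chr3:106001484-106001537, minus strand): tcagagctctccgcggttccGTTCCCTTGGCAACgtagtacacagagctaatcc
Enkur (chr2:21205344-21205397, minus strand): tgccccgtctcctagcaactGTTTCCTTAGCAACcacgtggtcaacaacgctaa
Rfx2 (chr17:56831090-56831144, minus strand): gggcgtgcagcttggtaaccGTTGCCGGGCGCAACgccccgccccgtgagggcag

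These 8 were chosen, after their values were seen, to span members that varied much between mice (Tekt4, Dnai1) and some that varied little (Enkur, Rfx2). Ak7 and Ccdc113, which also varied much, had no X-box in their windows. The first base of the match lies 51 bases before the start in Dynlrb2, 21 in Hydin, 20 in Pifo, 19 in Dnai1, 12 in Enkur and 116 in Rfx2, and at the start itself in Tekt4.

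Median probe set signals ran from 107.9 to 119.7, and the 3' to 5' ratio of Gapdh, a measure of RNA integrity, from 0.729 to 0.846. Aifm1 read 335.4, 221.1 and 211.2 in the Harlequin mice and 1239.9, 1255.6 and 1128.2 in controls, so the labels match the mutated gene (log2 difference -2.20, SE 0.18, limma adjusted p = 0.0158; exact two-sided permutation p = 0.1, the smallest that 3 against 3 arrays allow). That adjusted p rose above 0.05 when any of the 3 control arrays was left out (0.0616 to 0.097), and also without the intensity trend in the variance model (0.0887). The labelled tissue was borne out by Omp, the marker of mature olfactory neurons (17460 ± 1480 in Harlequin and 16890 ± 479 in controls, SD, n = 3), and by Cyp2g1, an enzyme of sustentacular cells (17650 ± 213 and 17570 ± 857). With 3 arrays a genotype, their number limits the precision of every comparison.

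No motile cilium gene was called changed between the genotypes. In limma, on log2(signal + 16) with p-values adjusted over the 13219 genes tested, 0 of 32 members passed an adjusted p of 0.05, and the lowest adjusted p was 0.981. Over all genes 4, or 0.0303%, passed. At an unadjusted p under 0.05 there was 1 member, Ccdc39, against 4.58% of all genes. The log2 differences ran from -0.34 to 0.27 around a median of -0.04, beside a median of 0.00 over all genes, with 11 members above 0 and 21 below. With median scaling, which moved the median of all genes to 0.03, they numbered 15 and 17. The 95% interval lay within a 2-fold difference either way for 31 members, as it did for 93.2% of all genes. Ccdc113, the remaining one, had an interval of -1.02 to 0.42. These intervals are not adjusted for the 13219 genes tested. With 3 mice a genotype, even a difference whose interval left out 0, that of Ccdc39, did not pass. The absence of calls therefore does not show that no gene changed.

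**Figure D1:**
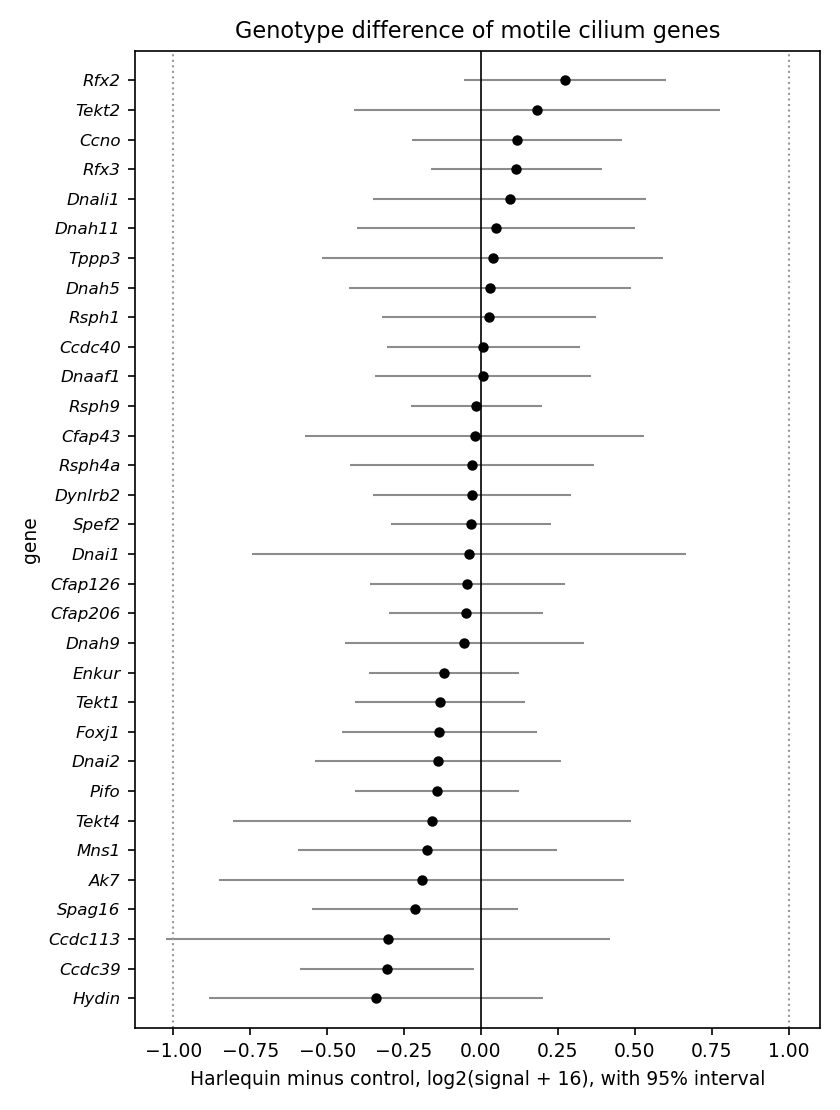
Harlequin minus control difference of the 32 tested motile cilium genes, on the log2(signal + 16) scale, with the 95% interval of the limma fit (3 arrays a genotype); dotted lines mark a 2-fold difference. Points run from -0.34 (Hydin) to 0.27 (Rfx2), and the interval of Ccdc39 alone lies on one side of 0.

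Few members had groups whose values did not overlap. In 1 member, Rfx2, the 3 Harlequin values all lay above the 3 control values, where 5.02% of all genes did so. In 0 members did they all lie below, where 5.34% of all genes did so. Rfx2 encodes an X-box binding factor that works with Foxj1. Its brightest probe set read 408.9, 335.6 and 318.7 in Harlequin mice and 296.2, 280.0 and 290.6 in controls. The lowest Harlequin value was thus close to the highest control value, and the test did not pass (log2 difference 0.27, SE 0.14, adjusted p = 0.981). Of its other 3 probe sets, the 1 above the signal minimum differed by 0.50, and 2 dim ones by 0.72 and -0.48. The first of these read 109.2, 169.2 and 97.6 in Harlequin mice and 121.3, 137.9 and 28.2 in controls. Its groups overlapped, and control replicate 3 alone was low.

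The other regulators showed little difference. Foxj1, the master factor of motile ciliogenesis, read 1767.5, 1563.9 and 1299.8 in Harlequin mice and 1476.2, 1837.6 and 1758.8 in controls. The ranges overlapped, with Harlequin replicate 3 lowest (log2 difference -0.13, 95% interval -0.45 to 0.18, adjusted p = 0.982). Rfx3, a related factor that also serves non-motile cilia, read 3862 ± 419 and 3573 ± 459 (SD, n = 3; 0.11, interval -0.16 to 0.39). Ccno, a cyclin-like protein needed to multiply centrioles in multiciliated cells, read 212.6 ± 8.12 and 195.1 ± 15.9 (0.12, interval -0.22 to 0.46).

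Dynein arm genes lay close to 0 as a group, with 5 of 9 above 0, 4 below and a median of 0.01, a split that turned to 4 above and 5 below with quantile normalization. Without Harlequin replicate 1, all 9 lay below 0, with a median of -0.13. The outer arm heavy chains Dnah5, Dnah9 and Dnah11 differed by 0.03, -0.05 and 0.05. Dnah5 read 433.3, 289.3 and 326.7 in Harlequin mice and 281.8, 323.2 and 421.6 in controls. Both genotypes thus held 1 high array, Harlequin replicate 1 and control replicate 3. Dnai1, an outer arm intermediate chain, was also highest in those arrays within each genotype. It read 608.3, 292.0 and 240.5 in Harlequin mice against 305.6, 374.4 and 410.5 in controls, where replicates 2 and 3 lay close together (-0.04, interval -0.74 to 0.66). Its second probe set differed by -0.16. Dnai2, the partner chain, differed by -0.14, Dnali1, a light intermediate chain of inner arms, by 0.09, and Dnaaf1, an arm assembly factor, by 0.01. Further probe sets above the signal minimum differed by -0.36 for Dnai2, by -0.20 for Dnali1, by -0.21 for Dnaaf1 and by 0.13 for Dnah9, the last 3 opposite in sign to the brightest. The brightest probe sets of Dnai1 and Dnai2 carry the suffix _x_at, by which the maker marks possible cross-hybridisation.

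Ccdc39 and Ccdc40 form the ruler that spaces dynein arms and spokes along the doublet, and their values parted. Ccdc39 read 2152.7, 1678.4 and 1596.0 in Harlequin mice and 2288.3, 2241.4 and 2129.2 in controls. Harlequin replicate 1 fell just within the control range and the other Harlequin mice below it (log2 difference -0.30, SE 0.12, interval -0.59 to -0.02, unadjusted p = 0.0378, adjusted p = 0.981). A second probe set above the signal minimum lay the same way, at -0.53, with no overlap of the groups. It read 189.0, 165.4 and 177.6 in Harlequin mice and 253.5, 239.3 and 296.0 in controls. A dim further one, at a mean signal of 37.8, differed by 0.65, and the mean over all 3 probe sets gave -0.06. Ccdc40 read 1945 ± 198 in Harlequin and 1946 ± 312 in controls (SD, n = 3; 0.01, interval -0.31 to 0.32).

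Radial spoke genes hardly differed. Rsph1 read 3630.2, 2999.5 and 2481.2 in Harlequin mice and 2952.3, 2581.0 and 3351.1 in controls, with the Harlequin values enclosing all those of controls (0.03, interval -0.32 to 0.37). The spoke head proteins Rsph4a and Rsph9 differed by -0.03 and -0.02. Rsph9 had the narrowest interval of the members, -0.23 to 0.20. Among central apparatus genes, Hydin, a very large protein of this structure, read 423.4, 248.7 and 286.9 in Harlequin mice and 373.4, 324.0 and 525.2 in controls. The 2 lowest of these 6 values were Harlequin and the highest was control replicate 3, and the difference, the lowest of the members, did not pass (-0.34, interval -0.88 to 0.20). Spag16 differed by -0.21 at its brightest probe set and by 0.03 at its next, and its mean over probe sets was 0.08. Spef2 differed by -0.03.

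The central apparatus genes Spag6 and Spag17 were below the signal minimum. Spag6 read 0.8 to 15.6 in Harlequin mice and 2.5 to 22.2 in controls, and the brighter Spag17 probe set 5.1 to 30.6 and 12.7 to 16.1. Low signal at a probe set does not show that a gene is silent. The mouse has a second gene of this kind, Spag6l, outside the member list, and its probe set read 703.0, 311.2 and 226.2 in Harlequin mice and 431.4, 444.6 and 506.3 in controls (-0.31, adjusted p = 0.982). It was highest and lowest in the same mice as Dnai1.

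Genes of the doublet microtubules and their accessory proteins lay mostly below 0, with 9 of 10 below and a median of -0.13, and none passed. Without Harlequin replicate 3, 6 of the 10 lay above 0, with a median of 0.035, so this direction rests on that mouse. Over all genes tested, 6609 of 13219 lay below 0. With median scaling Cfap43 joined Tekt2 above 0, at 0.01. Tektins are filament proteins inside the doublet. Tekt1 differed by -0.13 (interval -0.41 to 0.14) and Tekt2 by 0.18 (-0.41 to 0.78). Tekt4 read 772.7, 496.8 and 323.9 in Harlequin mice and 488.3, 530.5 and 679.3 in controls. The highest and the lowest of the 6 values were both Harlequin (-0.16, interval -0.81 to 0.49). Mns1, Enkur, Pifo and Cfap126 differed by -0.17, -0.12, -0.14 and -0.04, Cfap43 by -0.02, Cfap206 by -0.05 and Ccdc113 by -0.30. Cfap43 had further probe sets above the signal minimum, which lay the other way, at 0.28 and 0.35.

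The remaining members are further proteins of ciliated cells. Ak7, an adenylate kinase of motile cilia, read 1798.6, 1047.9 and 718.2 in Harlequin mice and 1175.9, 1172.9 and 1476.1 in controls (-0.19, interval -0.85 to 0.47). Tppp3, a tubulin-binding protein abundant in ciliated cells, read 4967.3, 3050.1 and 2438.1 in Harlequin mice and 3007.4, 2880.2 and 3941.3 in controls (0.04, interval -0.52 to 0.59). Dynlrb2, a dynein light chain of ciliated cells, read 8849.7, 6882.8 and 5914.3 in Harlequin mice and 6925.5, 6950.1 and 7948.8 in controls (-0.03, interval -0.35 to 0.29). In each of the 3 genes Harlequin replicate 1 was the highest of all 6 mice and Harlequin replicate 3 the lowest, on either side of the controls.

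**Figure D2:**
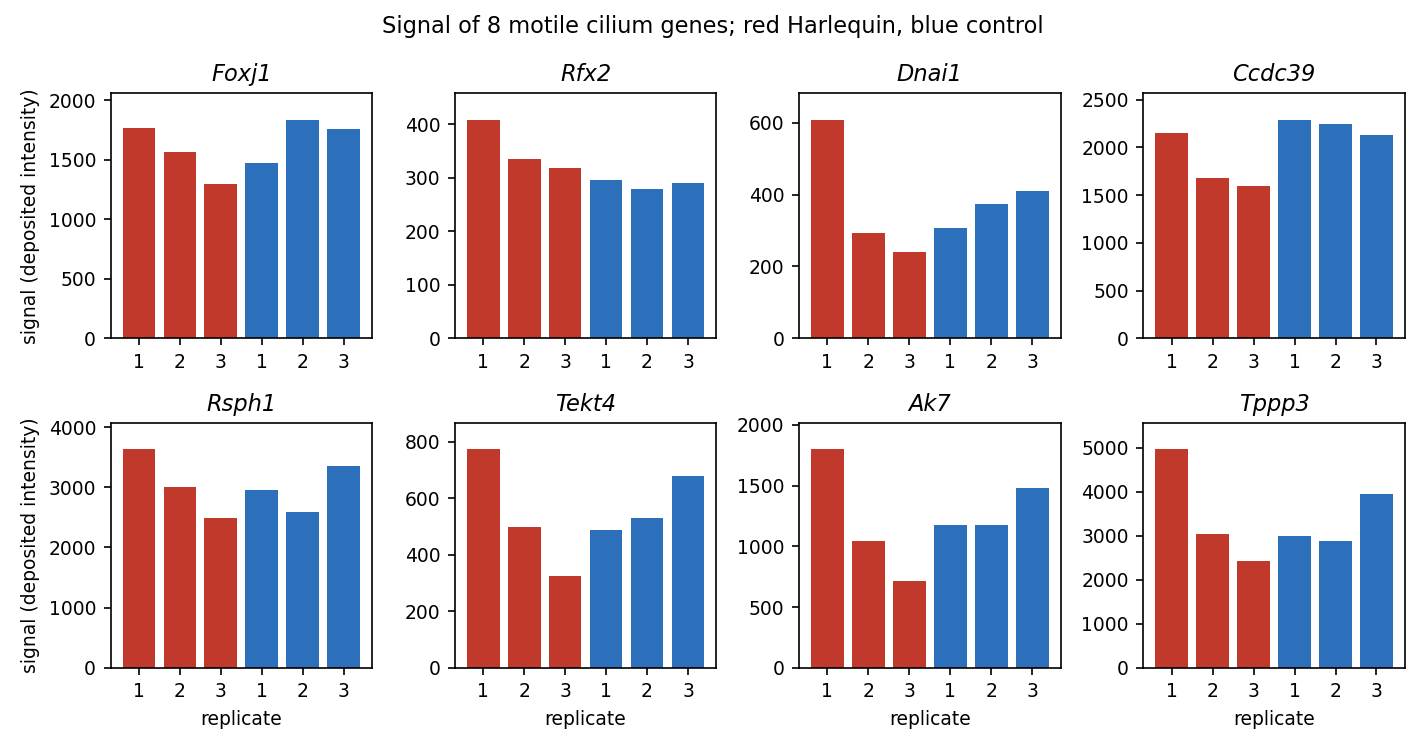
Deposited signal of 8 motile cilium genes on each array (bars from 0, linear scale; red Harlequin replicates 1 to 3, blue control replicates 1 to 3). Harlequin replicate 1 has the highest bar and Harlequin replicate 3 the lowest in Dnai1, Rsph1, Tekt4, Ak7 and Tppp3, while the Rfx2 bars of all 3 Harlequin mice stand above those of controls.

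That arrangement ran through most of the list. Harlequin replicate 1 held the highest value of its genotype in 28 of 32 members, or 87.5%, against 34.6% of all genes tested. Harlequin replicate 3 held the lowest in 22, or 68.8%, against 33.4% of all genes. Among controls, replicate 3 was highest in 18 of 32, or 56.2%, against 38.0% of all genes. The members share arrays, so these counts describe the 6 mice and not the genotypes.

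Harlequin replicate 1 exceeded Harlequin replicate 3 in 30 of 32 members. The median log2 difference between the 2 mice was 0.43, against -0.003 over all genes. The signal ratio of these 2 mice was 2.53 for Dnai1, 2.39 for Tekt4, 2.04 for Tppp3 and 1.93 for Ccdc113, and the widest log2 difference was that of Ak7, 1.31. At the other end the signal ratio was 1.13 for Enkur, 1.02 for Ccno, 0.91 for Spef2 and 0.88 for Rfx3. The SD between Harlequin mice was larger than that between controls in 23 of 32 members, or 71.9%, against 49.3% of all genes, with medians of 0.245 and 0.176 on the log2(signal + 16) scale. A difference in spread between genotypes was not tested.

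**Figure D3:**
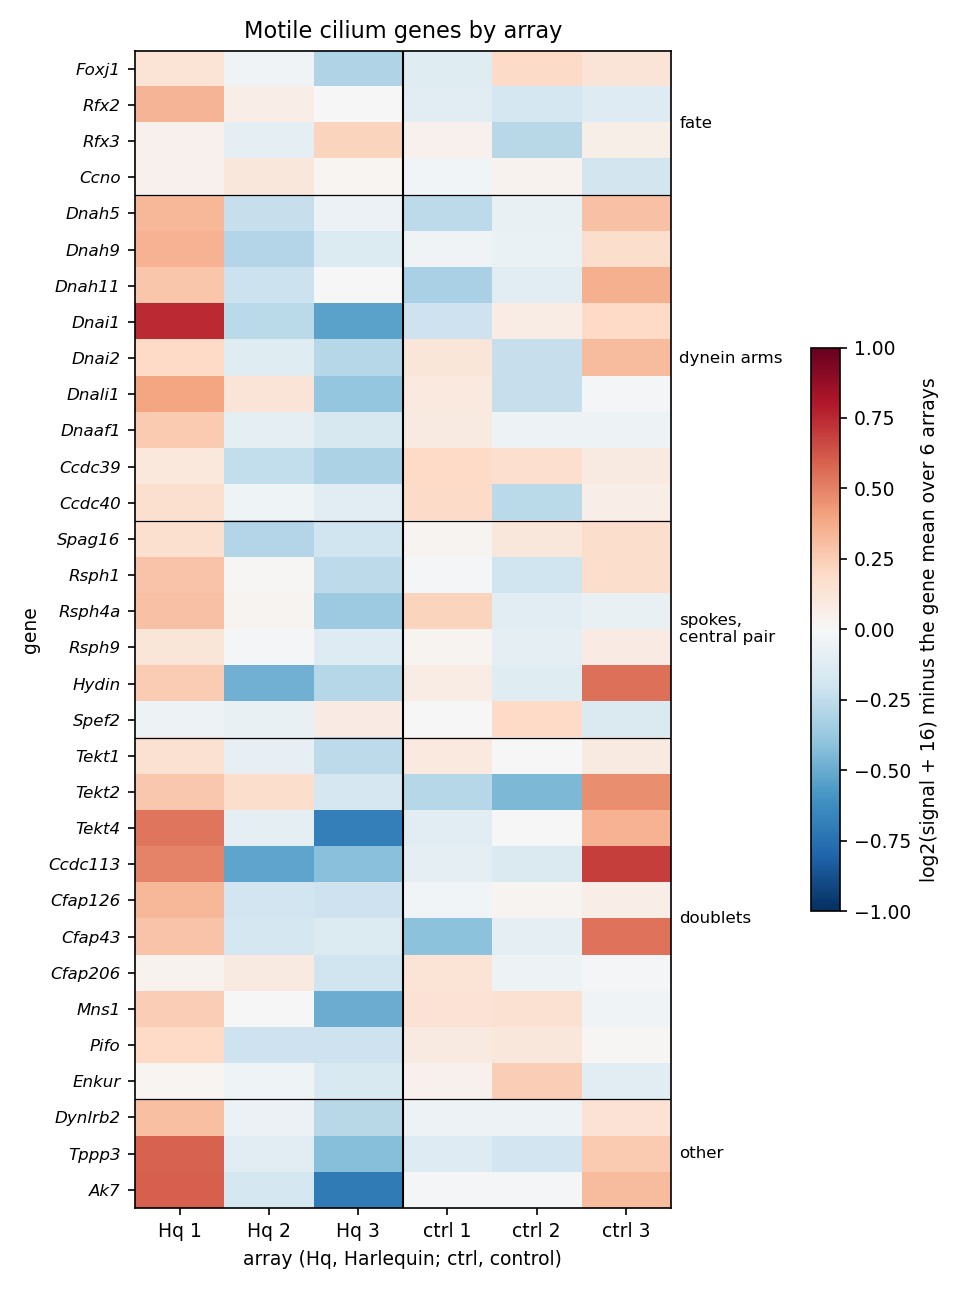
Deviation of log2(signal + 16) from the gene's mean over the 6 arrays, for the 32 tested members (rows, grouped by role) on each array (columns); red is above and blue below the mean. The Harlequin replicate 1 column is red and the Harlequin replicate 3 column blue for most genes, with Rfx3, Ccno and Spef2 among the exceptions.

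Averaged over the members, the per-array score, the mean log2 deviation of the genes from their mean over all arrays, was 0.265, -0.111 and -0.236 in Harlequin replicates 1, 2 and 3 and -0.019, -0.052 and 0.152 in control replicates 1, 2 and 3. The group means were -0.027 ± 0.261 and 0.027 ± 0.109 (SD, n = 3), a difference of -0.05 within scores that spanned 0.502. The scores of all genes tested spanned 0.041. The 3' to 5' ratio of Gapdh was 0.79, 0.787 and 0.729 in Harlequin replicates 1, 2 and 3 and 0.779, 0.74 and 0.846 in the controls. It was lowest in the mouse with the lowest member score and highest in the 2 mice with the highest scores. Harlequin replicates 1 and 2 had nearly equal ratios, with member scores of 0.265 and -0.111. The part of RNA integrity in the scores was not tested. By role, the Harlequin replicate 1 score was 0.314 for dynein arms, 0.176 for spokes and central apparatus, 0.256 for doublet proteins and 0.141 for the regulators. With quantile normalization the 6 member scores were 0.26, -0.114, -0.232, -0.017, -0.051 and 0.154, in the same order. With median scaling the control scores were 0.049, -0.086 and 0.073, so control replicate 3 no longer stood clear of control replicate 1.

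Single mice decided the direction of the list. Without Harlequin replicate 1, 28 of 32 members lay below 0, with a median of -0.18. In 12 members the 2 remaining Harlequin values then lay below all 3 control values, where 11.1% of all genes did so. Without Harlequin replicate 3, 22 of 32 lay above 0, with a median of 0.04. Over all 6 arrays left out in turn, 0 members passed in limma. Without Harlequin replicate 1 the lowest adjusted p of a member was 0.885, for Ccdc39. At an unadjusted p under 0.05 there were then 7 of 32 members, against 664 of 13219 genes, or 5.02%. Harlequin replicate 1 was the highest of its genotype in 28 of 32 members, so leaving it out lowers their Harlequin values. These counts are therefore no test of the list.

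Markers of the other respiratory cells were read on the same arrays. The secretory list, 18 of 21 genes tested, scored 0.477, -0.225 and -0.378 in Harlequin replicates 1, 2 and 3 and -0.021, 0.056 and 0.09 in controls. The extremes were the same 2 mice as for the cilia genes, and no gene of it changed (0 of 18; 1 at an unadjusted p under 0.05). Its defining markers did not all follow. Scgb1a1, the club cell secretoglobin, was below the signal minimum on average (4.9 to 18.4 in Harlequin mice, 4.4 to 18.8 in controls). Bpifa1, an abundant secreted protein of the nasal lining, read 28456.9, 29634.2 and 27541.0 in Harlequin mice and 28994.8, 29314.8 and 28788.7 in controls, near the top of the scale. Muc5b, a gel-forming mucin, was lowest in Harlequin replicate 2 (2644.0) and high in replicates 1 and 3 (5965.8 and 6430.2). The part of respiratory tissue content in the scores of the cilia genes was not tested.

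Basal cell genes, which respiratory and olfactory epithelium share, scored 0.536 in Harlequin replicate 1, and -0.22 and -0.256 in replicates 2 and 3. In controls they scored -0.423, 0.268 and 0.095, an order of mice that differs from that of the cilia genes. Krt15, a keratin of basal cells, read 3600.4 in Harlequin replicate 1 and 411.9 and 569.8 in the other Harlequin mice, against 159.4, 1348.3 and 1257.5 in controls. Markers of the olfactory epithelium varied less. Mature neuron markers ranged from -0.084 to 0.109 over the 6 mice, with -0.054, 0.057 and 0.048 in Harlequin, and sustentacular markers from -0.062 to 0.095. Sustentacular scores were nearly equal in Harlequin replicates 1 and 3 (-0.062 and -0.055), the mice highest and lowest in cilia genes.

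**Figure D4:**
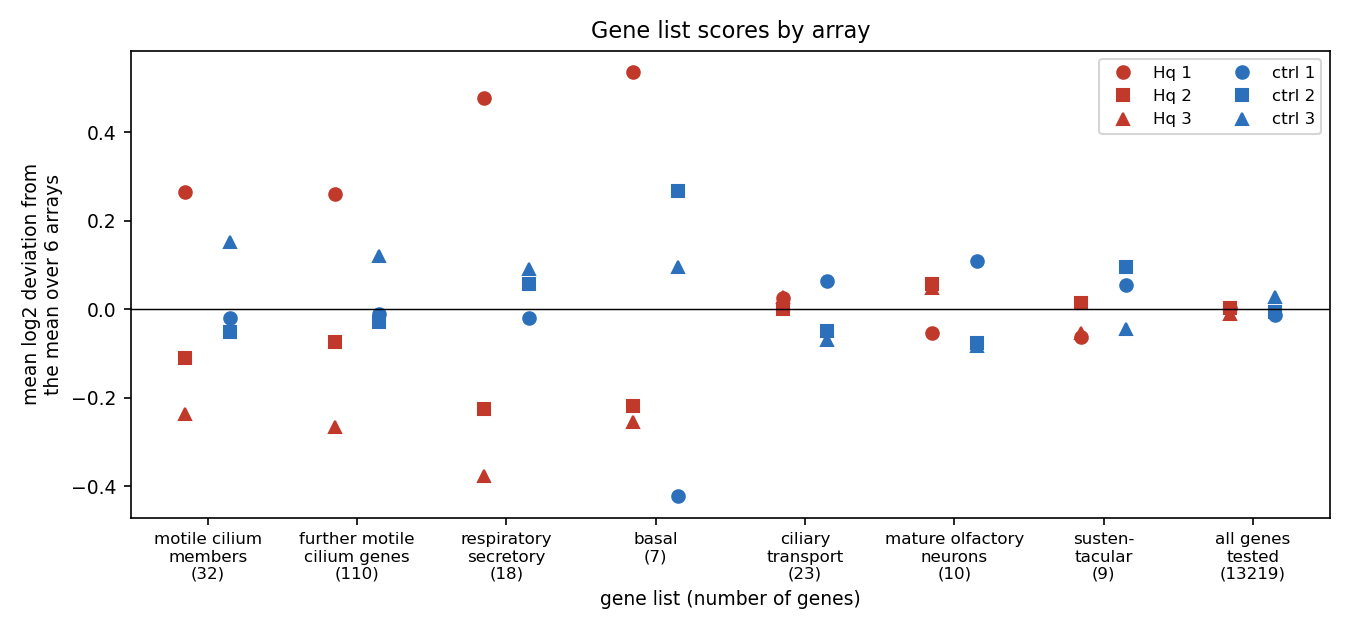
Score of each gene list (mean log2 deviation from the mean over 6 arrays, number of genes in brackets) on each array; symbols are single mice, red Harlequin and blue control. Motile cilium and respiratory secretory scores are highest in Harlequin replicate 1 and lowest in Harlequin replicate 3, whereas ciliary transport and olfactory neuron scores stay between -0.084 and 0.109.

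Genes of ciliary transport, which motile and non-motile cilia share, did not take part in this spread. The 23 genes tested, of 24 listed, scored 0.025, 0.001 and 0.027 in Harlequin mice and 0.064, -0.05 and -0.069 in controls. Ift88, a core transport protein, read 1188 ± 127 and 1170 ± 13.9 (SD, n = 3; log2 difference 0.02, interval -0.23 to 0.26). In this list 0 of 23 genes changed, with 1 at an unadjusted p under 0.05 and a median difference of 0.02. Among genes of developing sperm, whose flagella share axonemal proteins, Prm2 and Tnp1 were below the signal minimum. Prm1, the 1 gene of 6 in this list that was tested, read 58.8, 87.6 and 103.1 in Harlequin mice and 60.9, 168.9 and 105.5 in controls (-0.30, adjusted p = 0.982). Its highest mouse was control replicate 2.

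A longer list of further motile cilium genes gave the same picture. Of 168 listed genes, 120 were on the array and 110 were tested. None passed (0 higher and 0 lower; 5 at an unadjusted p under 0.05), and 51 lay above 0 and 59 below, with a median of -0.04. Their scores were 0.261, -0.074 and -0.267 in Harlequin mice and -0.012, -0.029 and 0.121 in controls, and Harlequin replicate 1 was highest of its genotype in 82 of 110 genes, or 74.5%. In 3 genes all Harlequin values lay above all control values and in 5 all below, together 7.27% of this list, where 5.02% of all genes lay above and 5.34% below.

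The genes with the smallest p in that list are given as values only. Higher in all 3 Harlequin mice was Mycbpap, at 427.3, 294.6 and 502.4 against 229.4, 141.8 and 286.6 in controls (log2 difference 0.87, SE 0.27, unadjusted p = 0.0127, adjusted p = 0.981). Ribc2, a protein inside the doublet, differed by 0.31, and Kif9, a kinesin of the central apparatus, by 0.26, with Wdr54 at 0.19. Lower in all 3 Harlequin mice was Iqub, a radial spoke protein, at 479.6, 568.8 and 604.7 against 748.4, 835.8 and 798.3 (-0.52, interval -0.81 to -0.23, unadjusted p = 0.00297, adjusted p = 0.981). In Iqub, Harlequin replicate 1 was the lowest mouse, unlike in most cilia genes. Riiad1, Ccdc146 and the cell cycle factor E2f5, which also acts in multiciliated cells, differed by -0.55, -0.48 and -0.29, without overlap of the groups and without passing the test.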

How the data were processed

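The authors deposited linear probe set intensities for 6 arrays, made from 3 µg of total RNA per the labels' protocols. The software that made them is not given in the sources used here. The mean over the middle values, without the lowest and highest 2%, was 500.002 to 500.003 on each array, and no other normalization was visible. Of 45101 probe sets, 64 controls were left out, 34945 name 1 gene in the platform annotation, 932 several and 9160 none. Values were taken as log2(signal + 16), which understates changes of dim genes. Genes were kept above the 40th percentile of probe set means, which left 13219. Harlequin was set against control with limma 3.58.1 (R 4.3.3; lmFit, eBayes with intensity trend), two-sided, with Benjamini-Hochberg adjustment over all genes tested. Summaries used Python 3.11.15 and pandas 2.3.3, figures matplotlib 3.10.9. The fit was also run on simulated data, in which genes varied independently and 200 were changed by known amounts. It called 80% of log2 differences of 1 and 98.8% of those of 2, and 6.5% of its calls were false. Far fewer genes were called in the real data, so these shares do not carry over to them.

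The members and lists were chosen with earlier results of these data known, and the X-box letters after seeing the windows. All members are named. Of the further cilium genes, up to 4 per direction with the smallest p are named, and of each other list the first 3 markers, not all of which are described. Spag6l was named after its values were seen. Replicates were not treated as paired by number in the reported fit. Deviations of same-numbered replicates correlated across genes at -0.237, -0.03 and 0.058, and those of different numbers from -0.245 to 0.3. With 3 arrays a genotype these values cannot show whether mice were paired. Alternatives were pseudocounts 1 and 64, no filter or the 60th percentile, quantile normalization, median scaling, other uses of probe sets and variance models, array weights, an adjusted p under 0.10, the replicate block, and each array left out.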

Additional observations from a re-analysis of the deposited data

How the results depend on the processing

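No motile cilium member and no further cilium gene changed in limma under any alternative run; members at an unadjusted p under 0.05 numbered 0 to 2, and 7 without Harlequin replicate 1. The genes changed over the whole array, 4 in the reported fit, numbered 7 with every probe set tested, and 0 without an intensity trend (643 genes at an unadjusted p under 0.05) and 0 with the replicate block (541). With 1 array left out they numbered 0 to 3. Aifm1 kept a log2 difference of -2.20 without a trend and with the replicate block, where its adjusted p was 0.0887 and 0.0605, and -2.40 to -2.08 with 1 array left out; it has no value without probe sets of shared suffixes. The replicate block thus removed every call of the reported fit, and it added none among the members or the further cilium genes. Members without overlap numbered 2 with quantile normalization and 2 without suffixed probe sets, in both of which Ccdc39 joined Rfx2. They numbered 0 with the mean over probe sets and 1 to 13 with 1 array left out. The 13 arose without Harlequin replicate 1, with 12 below all controls, where 11.1% of all genes did so. With 2 arrays against 3, groups fail to overlap more often than with 3 against 3. For the other settings the share over all genes is not given here, so these counts are not read as results. The members' score difference ran from -0.20 to 0.05 with 1 array left out, so its direction rests on single mice, and the cause was not tested. Of 477 differences of single members under the alternatives, 474 moved by less than the spread between replicates. Leaving out 1 of 3 arrays of a genotype cannot move a difference by more than that spread. Removing the filter or adding the replicate block cannot move it at all. That count is therefore no measure of stability. Ak7 ran from -0.54 to 0.11 and Ccdc113 from -0.62 to -0.03 with 1 array left out. Signal over background is not given per probe set, which limits what can be said of dim genes.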
